A study of Rattus norvegicus with 4 samples.

Results

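Of the 9318 autosomal YY1 peaks called in nonirradiated rat skin, 261 overlapped or lay within 1 kb of a YY1 peak called in irradiated skin, and these co-located peaks are described here. They were chosen by position alone: a nonirradiated peak on chromosomes 1 to 20 was taken when the gap to the nearest irradiated peak was 1000 bases or less, whatever the score of either peak, and that nearest peak was kept as its partner. The share taken was 2.80% (Wilson 95% interval 2.48 to 3.16), which the rule itself fixes and from which nothing is read. The remaining 9057 autosomal nonirradiated peaks had no partner. Because 4 irradiated peaks served as partner to 2 members each, the 261 members had 257 partners, or 1.55% (1.37 to 1.75) of the 16592 autosomal irradiated peaks. The series lists 26436 peaks in all.

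The data are chromatin immunoprecipitation with sequencing (ChIP-seq) of YY1 in rat skin. The animals were male Sprague-Dawley rats of an outbred stock, labelled as 4 weeks old. The irradiated group is skin given a single dose of 45 Gy from a 6 MeV electron beam at 750 cGy per minute. It gave 1 ChIP library for YY1 and 1 input library of chromatin that was not precipitated. The nonirradiated group is skin from a nonirradiated area, also with 1 ChIP and 1 input library, and the sources used here name no other allele or agent in either group. Groups follow the tissue source in the labels; the titles call the irradiated libraries NC, a prefix the labels leave undefined, and if it marks something else the side called irradiated below would need another name. The number of rats behind each library, whether both areas came from the same rats, and the time after irradiation are not stated in the labels. Whole skin is a mixture of keratinocytes, fibroblasts and other cells, so that a peak cannot be placed in 1 cell type, and no file used here holds expression values by which to check the tissue.

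YY1, a transcription factor with zinc fingers, binds a short motif with an ATGG core and can activate or repress, depending on the site and its partners. It occupies many promoters and enhancers, can hold a promoter and an enhancer together by pairing with itself, and has been studied in fibrosis as a regulator of fibroblast genes. A ChIP-seq peak is a stretch where precipitated fragments pile up above the background. A factor bound at the same base in 2 samples can give peaks with nearly the same midpoint. The midpoints used here are those of the called intervals, whose ends can differ between libraries. An offset between midpoints therefore does not by itself show a different binding site.

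Few partners had nearly the same centre, and the gap rule itself bounds the distances given here. Their range, median and grouping are a description and no result about the members. The distance between the midpoints of a member and its partner ranged from 1 to 1934 bases, with a median of 766.5 bases (95% order-statistic interval of the median 665.5 to 898) and quartiles at 371 and 1166.5 bases. Partners overlapped in 90 pairs (34.5% of members, 29.0 to 40.4), were 2 to 492 bases apart in 82 pairs (31.4%) and 506 to 986 bases apart in 89 pairs (34.1%). In 53 pairs (20.3%, 15.9 to 25.6) the irradiated midpoint fell inside the nonirradiated peak, and in 45 pairs (17.2%, 13.1 to 22.3) the shared stretch covered at least 50% of the longer peak. One peak lay wholly inside the other in 22 pairs. Members thus formed 3 groups of similar size, of which only the first shares any bases between the skin areas. The overlapping pairs shared between 2 and 981 bases, with a median of 314.

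The 8 pairs with the smallest midpoint distance were at most 44 bases apart. On chromosome 1 the nonirradiated peak at chr1:256959747-256960418 (score 58.58) and the irradiated peak at chr1:256959873-256960294 (score 57.88) had midpoints 1 base apart. The score was given to each peak by the authors and behaves as −10 log10 of its p-value, with a lowest value of 50 in the nonirradiated and 50.01 in the irradiated list. It depends on the depth and background of its library, so scores of the 2 skin areas are not on 1 scale and each is compared only within its own list.

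Of the other close pairs, the one on chromosome 7 had midpoints 9.5 bases apart, with the nonirradiated peak at chr7:86090401-86091274 scoring 60.09 and the irradiated peak at chr7:86090578-86091116 scoring 74.68. The pair on chromosome 14, at chr14:48129319-48130326 (65.54) and chr14:48129654-48130011 (78.77), was 10 bases apart, and the wider nonirradiated peak held the whole irradiated one. The pair on chromosome 5, at chr5:104119013-104119639 (52.1) and chr5:104119055-104119571 (57.92), was 13 bases apart. The members on chromosomes 1, 7, 14 and 5 were at percentile 43.2, 48.2, 63.6 and 13.1 of the nonirradiated list in turn. Those of the remaining close pairs ranked higher, at percentile 69.2, 97.7, 79.5 and 85.85 for chromosomes 17, 3, 4 and 2 in turn.

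On chromosome 17 the peaks at chr17:18362864-18363335 (nonirradiated, 68.51) and chr17:18362877-18363351 (irradiated, 72.37) nearly coincided over their whole lengths of 472 and 475 bases. On chromosome 3 the pair at chr3:171348577-171348999 (133.67) and chr3:171348597-171348949 (99.77) was 15 bases apart. It was the only one of the 8 that also ranked among the 8 pairs with the highest value of the lower of their 2 score percentiles, each taken within its own list. The chromosome 4 pair, at chr4:223689983-223690615 (76.09) and chr4:223689983-223690528 (110.78), began at the same base. On chromosome 2 the pair at chr2:209848823-209849803 (83.33) and chr2:209848687-209849851 (56.74) shared 981 bases, the longest shared stretch of any pair.

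The distances between midpoints had no break at 1 kb, though the limit of the rule is on the gap between intervals. Counting every nonirradiated and irradiated autosomal midpoint pair, 167 pairs lay under 1 kb apart and 170 lay 1 to 2 kb apart. Per 500 bases of distance this was 83.5 pairs (exact Poisson 95% interval 71.3 to 97.2) and 85 pairs (72.7 to 98.8). The value was 68.3 (61.9 to 75.3) at 2 to 5 kb, 61.4 (56.6 to 66.5) at 5 to 10 kb, 61.7 (60.6 to 62.9) at 10 to 100 kb and 59.4 (58.8 to 59.9) at 100 to 500 kb. Pairs closer than 2 kb were 1.42 times as dense (1.27 to 1.58) as pairs 100 to 500 kb apart. By midpoint distance, the density was thus as high at 1 to 2 kb as under 1 kb. Members had midpoints up to 1934 bases apart, so the range of 1 to 2 kb holds members as well. It therefore does not compare peaks inside the gap limit with peaks outside it. At 5 to 10 kb the interval held the distant level, and at 10 to 100 kb the density was 1.04 times that level (1.02 to 1.06). These ranges were set after the distances had been seen. These intervals cover counting error only, 1 peak can enter several pairs, and they say nothing of the spread between animals.

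Within the first 2 kb, the distances were nearly level, with the highest count at the shortest. Midpoints under 100 bases apart made up 29 pairs (19.4 to 41.6), and the other 19 steps of 100 bases held 10 to 23 pairs each, with a mean of 16.2, against 11.9 pairs per 100 bases at 100 to 500 kb. The interval of the first step overlapped that of the next highest (23 pairs, 14.6 to 34.5), and their difference was not tested. The 29 pairs were 11.1% of members (7.85 to 15.5). Within these 29 the midpoints were not closest at 0: 8 pairs (3.45 to 15.8) lay under 50 bases apart and 21 (13.0 to 32.1) lay 50 to 100 bases apart, against 5.94 pairs per 50 bases at 100 to 500 kb. The plot of pairs by distance shows both scales.

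**Figure D1:**
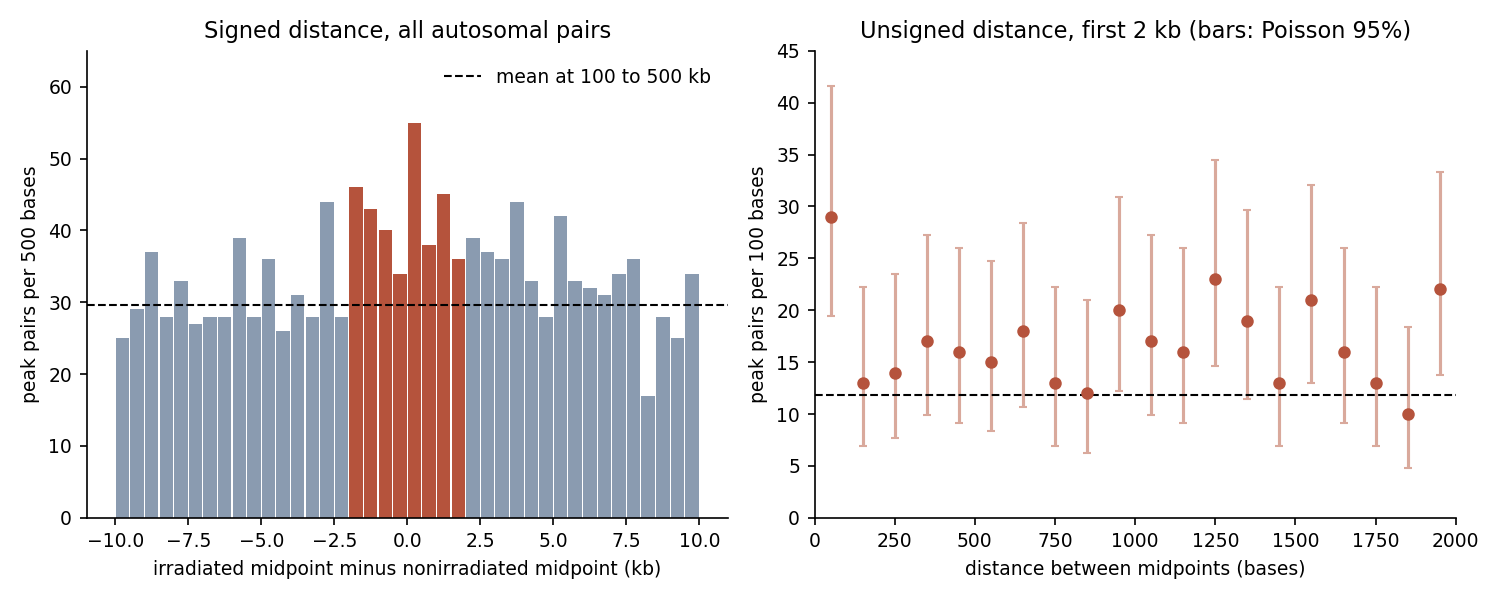
Left, number of autosomal peak pairs per 500 bases of signed distance (irradiated minus nonirradiated midpoint, kb), with distances under 2 kb in red; right, pairs per 100 bases of unsigned distance over the first 2 kb, with exact Poisson 95% intervals. Dashed lines give the mean at 100 to 500 kb (29.7 pairs per 500 bases on 1 side, 11.9 per 100 bases), and the first step on the right, with 29 pairs, stands above the other 19, which hold 10 to 23.

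The irradiated midpoint lay at the lower coordinate in 119 pairs (45.6%, 39.7 to 51.7) and at the higher one in 142 (54.4%, 48.3 to 60.3). The median signed offset was 81 bases towards higher coordinates, and its interval, −55.5 to 216, held 0. Among the 90 overlapping pairs alone the irradiated midpoint was lower in 37.8%, with a median offset of 81 bases (9.5 to 109). The direction is on the reference strand, since peaks carry no strand.

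At the limit itself, peaks just inside and just outside were as follows. The members with the largest gaps were at chr1:288906198-288906753 (score 62.82), whose partner at chr1:288907740-288908544 (60.04) began 986 bases away, at chr12:3929289-3929918 (50.88; gap 985 bases; partner score 70.51) and at chr12:10846051-10846659 (64.62; gap 977 bases; partner score 77.85). The nearest peaks left out were at chr9:63273776-63274388 (53.35; gap 1001 bases; nearest irradiated score 58), chr4:193736716-193737125 (55.02; gap 1006 bases; 78.14) and chr7:104583163-104583533 (177.26; gap 1010 bases; 78.14). Of all nonirradiated peaks, 47 had their nearest irradiated peak 751 to 1000 bases away, and 144 had it 1001 to 2000 bases away. The second range is the wider, and it held fewer peaks per base than the first, a difference that was not tested. The median gap of the 9057 peaks without a partner was 53041 bases.

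Co-located peaks had scores close to those of the rest of their lists. Member scores ran from 50.02 to 1286.99 with a median of 61.73 (interval of the median 59.44 to 63.8), against a median of 60.67 (60.29 to 61) in the peaks with no partner. A score of at least 100 was reached by 19 members (7.28%, 4.71 to 11.1), against 7.05% of all autosomal nonirradiated peaks. Partners had a median score of 67.09 (64.68 to 69.9), against 68.37 (67.87 to 69.03) in the other irradiated peaks, and 41 of 257 (16.0%, 12.0 to 20.9) reached 100, against 16.4% of all autosomal irradiated peaks. These shares are near their backgrounds and are no result about the members. With 1 ChIP library per skin area there are no replicates, so these and all other differences here have no replicate check and no p-value.

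The share of peaks that were co-located moved little over the score range of either list. In the nonirradiated list it was 2.53% (1.97 to 3.25) in the lowest 25% of scores, 2.74% and 2.80% in the middle ranges, and 3.13% in the highest 25% (2.50 to 3.92). In the irradiated list the share that served as partner was 1.66% (1.31 to 2.09) in the lowest 25% and 1.44% (1.11 to 1.87) in the highest. These had overlapping intervals in both lists, which is not a test of their difference.

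**Figure D2:**
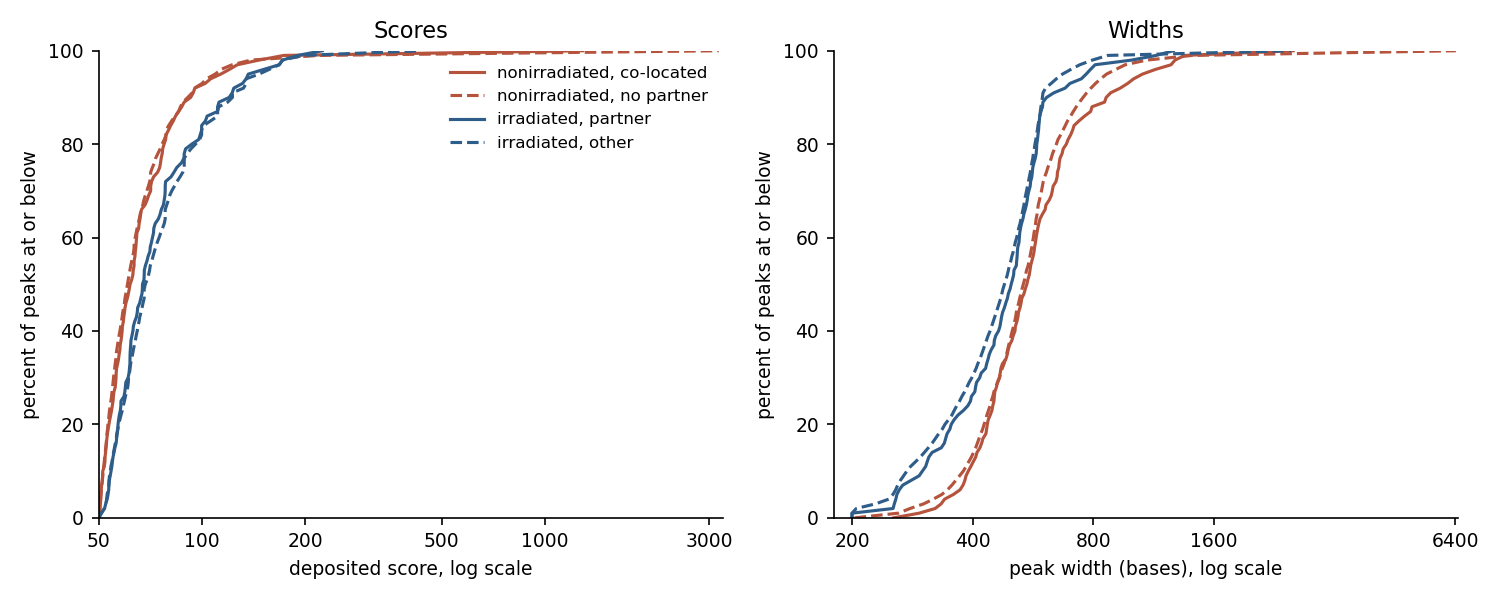
Percent of peaks at or below a given deposited score (left, log scale) and width in bases (right, log scale), for co-located nonirradiated peaks, nonirradiated peaks with no partner, irradiated partners and other irradiated peaks. In each list the solid line of the co-located peaks runs close to the dashed line of the rest, with score medians of 61.73 and 60.67 (nonirradiated) and 67.09 and 68.37 (irradiated), and the lines part most at the wide end, where 90% of members are at or below 861 bases and 90% of nonirradiated peaks with no partner at or below 754.

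The rank relation between the scores of members and partners was weak, and its sign varied between subsets. Across the 261 pairs the rank correlation of member and partner scores was −0.07 (Spearman, a description across pairs that share 2 libraries), and it was −0.02 between the 9057 other nonirradiated peaks and their nearest irradiated peak. Both scores were in the top 25% of their lists in 15 pairs, and both in the bottom 25% in 16. The nonirradiated score was in the top 25% and the irradiated one in the bottom 25% in 27 pairs, and the reverse held in 13. For comparison, 73 members were in the top and 59 in the bottom 25%, and 59 pairs had a partner in the top and 70 in the bottom 25%. On both sides 2 pairs scored at least 100. The correlation was −0.13 in the 90 overlapping pairs, 0.13 in the 29 pairs with midpoints under 100 bases apart and −0.21 in the 94 pairs found with a score of at least 60 required in both lists. In the 29 pairs the median scores were 58.58 (55.17 to 65.54) for members and 67.82 (61.73 to 77.49) for partners.

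The 5 highest-scoring members had partners of ordinary score. The highest, at chr2:5527430-5528284, scored 1286.99, while its partner at chr2:5528812-5529340 lay 527 bases away and scored 57.05, percentile 19.5 of the irradiated list. The second, at chr1:132834794-132835282, scored 339.21 and had a partner 119 bases away that scored 61.39. These were the only members above 200. The third, at chr2:124950600-124951157 (185.82), shared 311 bases with a partner scoring 64.68. The others, at chr14:17352677-17353336 (164.87) and chr1:40309060-40309605 (148.22), had partners at 61.32 and 67.82, and the last of them held its partner's full 352 bases. All 5 partners were below the middle of the irradiated list, between percentiles 19.5 and 47.0.

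Of the 5 highest-scoring partners, 3 had the narrowest width of their list, and their members ranged from percentile 14.6 to 84.1 of the nonirradiated list. The highest, at chr4:241639923-241640122, scored 224.27, was 200 bases wide and lay 92 bases from a member that scored 56.23. The partner at chr15:11811547-11811746 scored 197.57, was also 200 bases wide, and lay wholly inside the member at chr15:11811254-11811877 (52.36). An equal score of 197.57 belonged to the 200-base partner at chr1:168977857-168978056, whose member scored 80.2. The partners at chr10:87312321-87312589 (184.52, 269 bases wide) and chr15:12330577-12331019 (176.12, 443 bases) had members at 78.6 and 70.88. The members of the chromosome 1 and chromosome 10 partners, at percentiles 84.1 and 82.3, put those pairs among the 8 that rank highest on both sides. Of these 5 pairs 1 overlapped. Narrow irradiated peaks tended to have higher scores, and the rank correlation of score and width was −0.48 among partners of members and −0.54 among the irradiated peaks nearest to the other nonirradiated peaks.

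The pairs ranking highest on both sides were led by one on chromosome 3. There the member at chr3:122795608-122796147 (119.82) lay 29 bases from the partner at chr3:122796177-122796429 (134.54), at percentiles 96.4 and 93.4. Next came chr14:102047116-102047410 (93.28) with chr14:102046333-102046795 (113.8), 320 bases apart, and chr1:6986657-6987449 (85.71) with chr1:6985140-6985826 (119.85), 830 bases apart. The member at chr8:18513417-18513670 (148.17), 254 bases wide and the narrowest of all members, lay 351 bases from a partner scoring 102.65. Of the 8 pairs ranking highest by the lower of their percentiles, 2 overlapped: the chromosome 3 pair at chr3:171348577-171348999 named above and the pair at chr7:2081134-2082404 (84.62) and chr7:2081899-2082595 (98.13), which shared 506 bases. The other 6 had gaps of 29 to 830 bases.

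**Figure D3:**
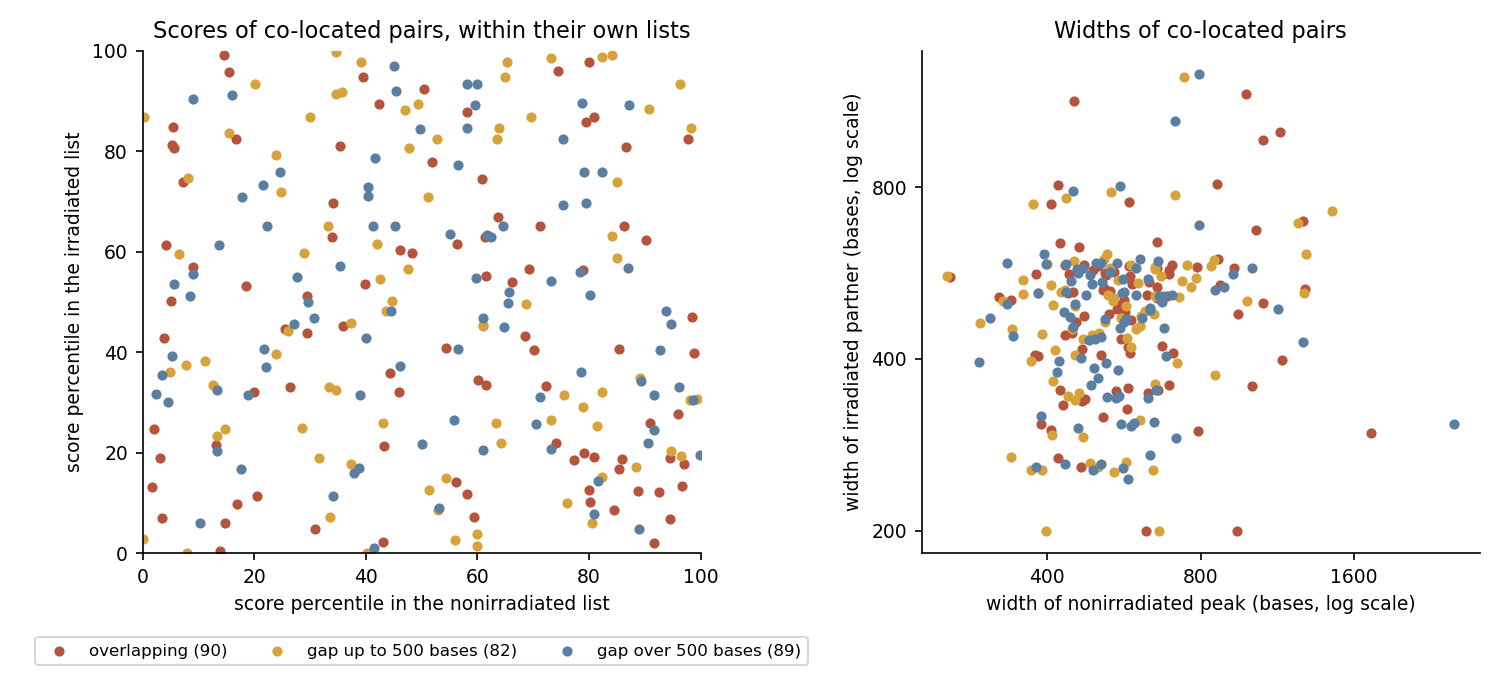
Each point is 1 of the 261 co-located pairs, coloured by overlap (90), a gap up to 500 bases (82) or a gap over 500 bases (89). Left, score percentile of the member in the nonirradiated list against that of its partner in the irradiated list, spread over the whole square with a rank correlation of −0.07; right, widths of both peaks in bases on log scales, with a rank correlation of 0.16.

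Co-located peaks were slightly wider by the median in both lists, though both intervals held the median of the rest. Members had a median width of 546 bases (520 to 566), against 535 (531 to 539) for peaks with no partner, and partners a median of 499 (475 to 517), against 480 (477 to 483) for other irradiated peaks. Among the widest 10% of the nonirradiated list were 37 members (14.2%, 10.5 to 18.9) and 9.87% (9.27 to 10.5) of peaks with no partner. A wide peak reaches further and meets the gap rule more easily, and how far this sets the difference was not tested. The co-located share was 2.55% (1.99 to 3.27), 2.80% (2.2 to 3.55) and 2.25% (1.72 to 2.93) in the 3 narrower ranges of nonirradiated width, each of about 25% of the list, and 3.61% (2.93 to 4.45) in the widest, the only interval of the 4 that did not hold the autosomal share. When midpoints had to lie within 1000 bases, which takes no account of width, the 167 peaks taken had a median width of 534 bases (506 to 569), against 536 for the rest. Their partners had a median of 495 bases (463 to 514), against 480 for all irradiated peaks. Under this rule the share taken was 2.15% (50 peaks) in the widest 25%, against 1.42% to 1.87% (33 to 44 peaks) in the others. No intervals were calculated for these shares, and their difference was not tested.

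The widths of members and partners were weakly related in rank, which is given as a description. The correlation was 0.16 over the 261 pairs, and 0.01 between the 9057 other nonirradiated peaks and their nearest irradiated peak. It was 0.13 in overlapping pairs, 0.28 in pairs with a gap up to 500 bases and 0.04 in pairs with a larger gap, and 0.12 in the 144 peaks whose nearest irradiated peak was 1001 to 2000 bases away. Without the widest 5% of either list it was 0.10 over 221 pairs. The gap rule acts on the widths of both peaks, and its part in these correlations was not tested. The widest member, at chr2:176148792-176151313, spanned 2522 bases and scored 114.91, and its partner, 506 bases away, spanned 308. The next, at chr19:662870-664598 (1729 bases, score 125.04), shared 15 bases with a 297-base partner, and the third, at chr1:28388907-28390353 (1447 bases, 58.32), lay 2 bases from a 726-base partner. None of these 3 had a partner near its own width.

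Members lay on all 20 autosomes, between 3 each on chromosomes 16, 19 and 20 and 44 on chromosome 1. Chromosome 1 had the highest count, and 4.14% of its nonirradiated peaks were co-located (3.10 to 5.51). Its interval was the only one of the 20 that did not hold the autosomal share of 2.80%, and counting error alone puts the true share outside 1 in 20 such intervals. Chromosome 11 had a similar share, 4.22% (2.53 to 6.95, 14 members). The lowest share was on chromosome 16, with 3 of 279 peaks (1.08%, 0.366 to 3.11). Pairs under 2 kb apart were 1.9 times (1.42 to 2.50) as dense as pairs 100 to 500 kb apart on chromosome 1, and 1.36 times (1.21 to 1.52) on chromosomes 2 to 20, so the short-distance excess was also present without chromosome 1. The difference between the chromosomes was not tested.

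**Figure D4:**
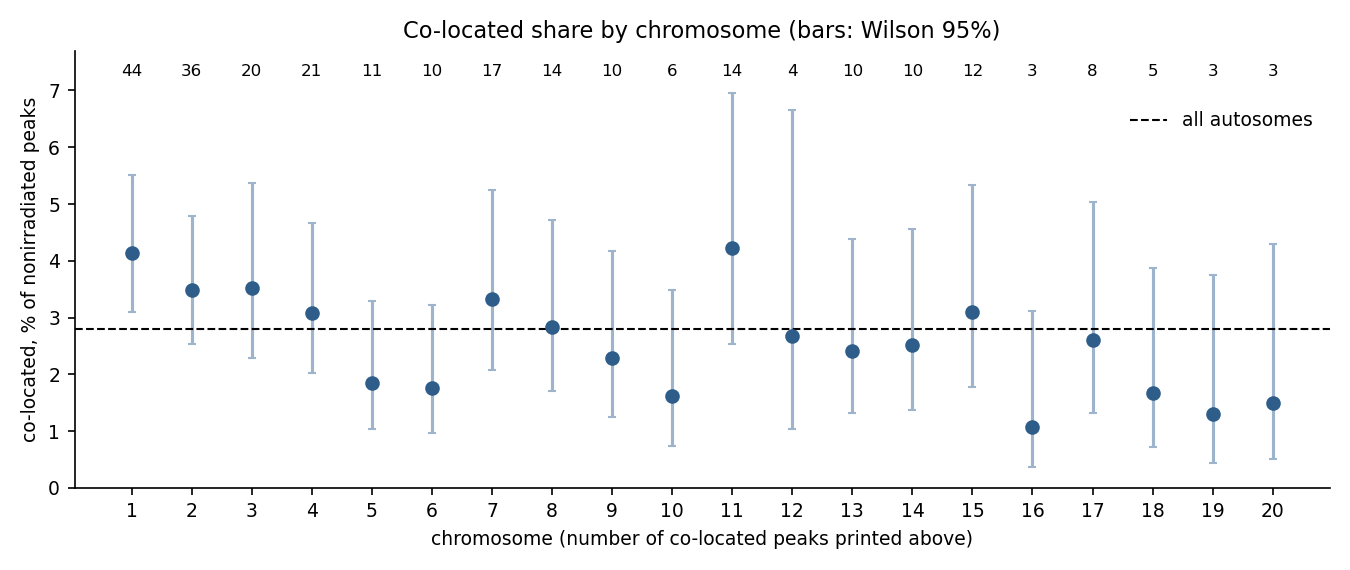
Percent of nonirradiated peaks of each autosome that were co-located with an irradiated peak, with Wilson 95% intervals and the number of members printed above; the dashed line is the autosomal share of 2.80%. Chromosome 1, with 44 members and 4.14%, has the only interval that lies wholly above the line, and none lies wholly below it.

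Along the chromosomes most members had no other member in the same window of 1 Mb. The members are few, and their spacing was not compared with that of an equal number of other peaks. It is therefore no trait of the members. The median distance between neighbouring members was 5.81 Mb, and 7 of 241 neighbouring pairs were within 100 kb. Counted in windows of 1 Mb, 240 windows held 1 member, 9 held 2 and 1 held 3. The window with 3 was on chromosome 1 between 56 and 57 Mb, where 8 nonirradiated and 10 irradiated peaks were called. Its members were at chr1:56379323-56380268 (score 53.17), chr1:56478409-56479067 (69.24) and chr1:56479961-56480613 (98.07). The last of these had the same partner as the one before it, at chr1:56478665-56479017 (64.84), which lay inside the earlier member and 943 bases from the later one.

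In all, 4 irradiated peaks were partner to 2 members, and in each case 1 member overlapped the partner and the other did not. Besides the chromosome 1 case at 56 Mb, the partner at chr1:73168370-73168880 (121.94) lay inside the member at chr1:73168353-73169009 (58.37) and 251 bases from chr1:73169132-73169672 (60.46). The partner at chr2:121051414-121051773 (64.94) overlapped chr2:121051602-121052293 (82.53) and lay 893 bases from chr2:121050033-121050520 (63.09). On chromosome 15 the members at chr15:94707012-94707444 (52.37) and chr15:94707497-94708011 (50.31) were 52 bases apart, the closest neighbours of all members, and the partner at chr15:94707937-94708464 (59.31) overlapped the second. One member had 2 irradiated peaks within 1 kb: the peak at chr18:26888926-26889455 (75.83), which shared 427 bases with the nearer of them, at chr18:26889029-26889555 (57.19). In these places 1 list had 2 calls where the other had 1, so members that share a partner are not independent of each other.

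Peaks of both lists were counted in rings around the midpoints of members and of peaks with no partner, leaving out the first 2 kb, which the rule affects directly. A rule that takes peaks with a near irradiated peak can also favour stretches dense in peaks. Its part in the values beyond 2 kb was not tested. Irradiated peaks at 2 to 10 kb numbered 8.38 per Mb around members (35 peaks, Poisson 95% interval 5.84 to 11.7) and 6.82 per Mb around the rest. At 10 to 50 kb the values were 6.99 (5.90 to 8.22) and 6.74, at 50 to 100 kb they were 6.86 (5.89 to 7.94) and 6.51, and at 100 to 500 kb they were 6.27 (5.93 to 6.62) and 6.37. Nonirradiated peaks at 2 to 10 kb numbered 5.27 per Mb around members (22 peaks, 3.30 to 7.98) and 4.14 around the rest. The values were 4.45 (3.59 to 5.46) and 3.75 at 10 to 50 kb, 4.18 (3.43 to 5.04) and 3.75 at 50 to 100 kb, and 3.78 (3.52 to 4.05) and 3.68 at 100 to 500 kb. The value around members was the higher in each of the 6 rings within 100 kb, while its interval held the value of the rest in every single ring. The range of 2 to 100 kb together was added after these values had been seen. There nonirradiated peaks numbered 4.38 per Mb around members (224 peaks, 3.82 to 4.99) and 3.78 (3.69 to 3.88) around the rest. The interval of the members lay just above 3.78 but overlapped the interval of the rest. One peak can be counted around several members, which these intervals ignore. Irradiated peaks in this range numbered 7.04 (360 peaks, 6.33 to 7.80) and 6.63.

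The density of close pairs was also read within parts of each list by score. For the top 25% of nonirradiated scores, pairs under 2 kb apart were 1.59 times (1.29 to 1.95) as dense as those 100 to 500 kb apart, and for the bottom 25% 1.20 times (0.934 to 1.51). For the irradiated list the values were 1.13 times (0.867 to 1.46) in the top 25% and 1.60 times (1.30 to 1.95) in the bottom 25%. Under 1 kb these were nearly equal, at 1.60 times (1.16 to 2.15) with 43 pairs in the top and 1.63 times (1.21 to 2.16) with 49 pairs in the bottom 25%. At 1 to 2 kb they were 0.669 times (0.396 to 1.06) with 18 pairs and 1.57 times (1.15 to 2.08) with 47. Under 1 kb the nonirradiated values were 1.66 times (1.23 to 2.19) in the top and 1.25 times (0.878 to 1.72) in the bottom 25%. Intervals of top and bottom overlapped in both lists except for irradiated scores at 1 to 2 kb, and the differences were not tested. The absence of an irradiated peak near the other 9057 nonirradiated peaks is no sign that the factor did not bind, because coverage by reads was not analysed here.

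No gene, promoter or sequence is given for these regions. Positions are on build rn5, and the annotation and promoter sequences at hand are for GRCr8, so genes, exons, the YY1 motif and base sequence at the co-located peaks were not analysed here.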

How the data were processed

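The series holds 4 libraries, a YY1 ChIP and an input library from each skin area, read as 150-base paired ends per the labels. Per the submitters' processing notes, the tools were cutadapt 1.9.1 (a trimmer) and Bowtie2 2.2.4 (an aligner), and the build was rn5. The deposited files are 2 peak lists, 1 per ChIP library, whose identifiers name the caller MACS; its version, pooling and the number of reads are not stated there, and depth is unknown. Each peak has a start, an end and a score in the deposited lists. On a scale of −10 log10 of the p-value, the score deposited by the authors has a threshold of 1e-05, with lowest values of 50 and 50.01. The input as control is known only from the names of the lists.

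The co-located peaks were found by the gap between intervals, with ties among overlapping peaks going to the nearer midpoint; positions are printed 1-based. A percentile is the percent of the autosomal list with a lower score, ties counted at the middle. Shares carry Wilson 95% intervals, counts exact Poisson intervals and medians binomial order-statistic intervals. All cover counting error only, and none measures spread between animals. With 1 ChIP library per area no test was made. The routine found 200 of 200 planted pairs among 3000 simulated peaks, and 261 members, as did bedtools 2.31.1. The members, lists and quantities were chosen with earlier results of these data known. Named regions are the 8 smallest midpoint offsets, the 8 pairs highest by the lower percentile, the 5 highest scores on each side, the 3 pairs on each side of the limit, the 3 widest members, and members that share a partner or lie closest together. Alternatives were other gap limits, score minimums, the X chromosome, removal of the widest 5%, a midpoint rule and another choice of partner. The correlation of widths and the distance counts by score and chromosome were added with the data in view. The planned motif and gene comparisons need an rn5 reference and were not run. Calculations used Python 3.11.15 (scipy 1.17.1, numpy 2.4.6, pandas 2.3.3) and, for plots, matplotlib 3.10.9.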

Additional observations from a re-analysis of the deposited data

Results flagged for a closer look

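The X chromosome lies outside the autosomal rule, and 4 of its 184 nonirradiated peaks were within 1 kb of an irradiated peak. The share was 2.17% (Wilson 95% interval 0.849 to 5.46), and this interval holds the autosomal share of 2.80%. The closest X pair, at chrX:115806430-115806926 (nonirradiated score 52.11) and chrX:115806432-115806919 (irradiated score 156.22), had midpoints 2.5 bases apart and shared 488 bases. The pair at chrX:22139208-22139719 (50.61) and chrX:22139077-22139307 (184.52) shared 100 bases. The other 2 members, at chrX:16987924-16988590 (73.12) and chrX:150416457-150416897 (80.15), had gaps of 746 and 909 bases and partners scoring 57.12 and 52.61. No cause was tested.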

How the results depend on the processing

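Of 55 alternative values, 33 stayed within the interval or tolerance of the reported value (1.5 times for counts, 0.1 for correlations), 20 moved and 2 changed sign. The gap limit sets the number of members and their offsets by its construction. Requiring overlap left 90 members (0.966%) with a median midpoint offset of 226 bases, 500 bases gave 172 (1.85%) and 488 bases, 2000 bases gave 405 (4.35%) and 1204.5 bases, and 5000 bases gave 772 (8.29%). Midpoints within 1000 bases gave 167 members (1.79%). A score of at least 60 in both lists left 94 (1.93%), where the rank correlation of scores was −0.21, and at least 100 left 2 (0.304%). The median width of members minus that of peaks with no partner was 11 bases as reported and 32.5 bases with overlap required, and it changed sign to −4 bases without the widest 5% of peaks and to −2 bases under the midpoint rule. With overlap required, the irradiated midpoint was the lower in 37.8% of pairs; the cause was not tested. The differences of median score stayed within their intervals under every alternative run, from 0.37 to 2.56 for members (reported 1.06) and from −2.63 to −0.36 for partners (reported −1.28). No paired analysis was possible because each skin area has 1 ChIP library, and for the same reason none could be left out. Unknown read depth limits what a missing partner shows.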
